A study of Homo sapiens with 4 samples.

Results

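Most human mRNAs carry several in-frame stop codons (3′TCs) in the 3′UTR, so a ribosome that reads through the normal termination codon (NTC) soon meets another one. The transcripts described here have none. They were chosen as the transcripts with an in-frame 3′TC count of 0 in any of the 4 deposited tables, a property of the annotated sequence that uses no read count, and 446 of the 9271 transcripts in the tables qualified. They are called stop-free transcripts below, and the other 8825 are the transcripts with a 3′TC. HEK293T cells, a human embryonic kidney line carrying the SV40 large T antigen, were profiled after no treatment (2 replicates, A and B) or after 24 hr in medium with 500 µg/mL G418 (2 replicates, A and B). G418 (geneticin) acts at the ribosomal decoding center, where this aminoglycoside allows near-cognate tRNAs to be accepted at stop codons. Where the values of 4 libraries follow each other they are untreated A, untreated B, G418 A and G418 B, and those of 2 libraries are A and B. The 2 groups share the cell line and differ in the drug only, and no gene was edited. Of 7 genes listed as HEK293T markers 6 were in the tables. Of these, PAX2 was in the G418 tables only, at 1.04 and 1.36 RPKM, and KRT8 had 2.13, 1.45, 1.60 and 1.84 RPKM. Of 10 markers of blood, liver, kidney tubule, muscle and other tissues 1 was in the tables. This was COL3A1, at 1.35 RPKM in untreated replicate B and absent from the other tables.

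A ribosome that translates past the last stop codon of an mRNA runs toward the poly(A) tail. Ribosomes halted at an mRNA end or in a poly(A) tail are known to be split by PELO, HBS1L and ABCE1, while the SKI complex and the exosome degrade the mRNA and the quality control factors LTN1 and NEMF tag the nascent chain. The files hold ribosome protected fragments (RPFs) assigned to transcripts, so they show ribosomes on the 3′UTR itself and not on the tail.

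The 10 stop-free transcripts with the most counted 3′UTR reads were those of PFN1, ACTB, HIST1H1E, HIST1H2AI, BANF1, APRT, HIST1H4J, NACA, HIST1H4H and RPL5, which together carried 40.8% of the 11044 such reads of all stop-free transcripts. The 3′ end of PFN1, which has the most of these reads, is printed because the poly(A) signal there, in capitals, sits in a frame that gives no stop codon. These are the last 30 nt of the mRNA, 5′ to 3′ on its strand, read from hg38 through the GENCODE annotation at chr17:4945652-4945681 (minus strand).
PFN1 3′ end: ttttctgAATAAAaaagattctactaacaa

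Stop-free 3′UTRs were short and rich in G and C. Their annotated length had a median of 86 nt, against 1001 nt for transcripts with a 3′TC. Of the 158 transcripts with a 3′UTR under 50 nt 63.3% were stop-free, of those from 50 to under 100 nt 39.4%, from 100 to under 200 nt 16.6%, from 200 to under 300 nt 5.71%, and of the 7280 longer ones 0.440%. In the 370 stop-free 3′UTRs that match the annotation used here, the median GC content was 54.6%. In the 309 of these under 200 nt it was 52.1%, against 42.3% in 787 transcripts with a 3′TC and a 3′UTR under 200 nt. The other 2 reading frames held 1.35 stop codons per 100 nt of each frame in stop-free 3′UTRs under 200 nt and 1.57 in the comparison transcripts of that length. The canonical poly(A) signal AAUAAA was in the last 50 nt of 34.3% of stop-free 3′UTRs under 200 nt and of 51.0% of the comparison transcripts. One of the 3 frames of AAUAAA reads UAA in frame, which the rule bars, and it accounts for 39.8% of the signals in those comparison transcripts. Translation to the transcript end would add a median of 29 codons and at most 191. UGA ended 56.3% of the stop-free coding sequences, UAG 23.5% and UAA 20.2%, while the shares among transcripts with a 3′TC were 50.4%, 21.98% and 27.6%. Chromosome 19 held 73 of the stop-free transcripts (16.4%), against 6.71% of the others.

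Whether a 3′UTR is stop-free depends on the isoform. The study kept a single transcript per gene and, among isoforms equal in its other criteria, the one with the shortest 3′UTR. Of the 446 transcripts, 424 could be matched by CDS length and stop codon to GENCODE release 44, a later release than the study used. For 243 of them every annotated isoform that ends its CDS at the same stop codon lacks an in-frame 3′TC. For the other 181 at least 1 isoform with that stop codon has a longer or different 3′UTR that contains one, among them 26 whose own model does so in the later release. ACTB, the cytoplasmic actin gene, is such a case, and the transcript counted has a 3′UTR of 212 nt. All 7 other isoforms with its stop codon meet an in-frame 3′TC, the first beginning after 240 nt of 3′UTR. NACA (a chaperone of nascent chains), BANF1 (a DNA-bridging protein of the nuclear envelope) and RPL13 (a 60S ribosomal protein) also have such isoforms, whereas no such isoform of PFN1 (an actin-binding protein), APRT (an adenine salvage enzyme), RPL5 or the 4 histone genes listed above has an in-frame 3′TC. Isoforms that end at another stop codon were not examined. Of the 370 stop-free transcripts with a matched CDS and 3′UTR, 36.2% were the representative (MANE Select) transcript of their gene, against 66.3% of 7443 others. CDS reads shared with isoforms that end elsewhere can enter the CDS density by which 3′UTR reads are divided. Their share was not tested.

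Stop-free transcripts took 6.39% to 7.01% of the mRNA reads of a library, which totalled 6082600 and 2440204 (untreated) and 5677910 and 4763858 (G418). Over their counted 3′UTRs lay 704 and 271 reads in the untreated libraries and 5649 and 4420 in the G418 libraries. The tables leave the first 6 nt after the NTC out of every 3′UTR. For stop-free transcripts they leave out 6 further nt when they count reads for the ribosome readthrough score (RRTS), so the counted window is 12 nt shorter than the annotated 3′UTR. RRTS is the RPF density of that window divided by the CDS density, given here in percent. Of the 446 transcripts 402 were in all 4 tables, and 294 of these also reached a minimum of mRNA reads, summed over the replicates, in each condition. Values over many transcripts refer to these 294, beside 6215 transcripts with a 3′TC that met the same rule. No 3′UTR read was found for 146 of the 294 in either untreated library and for 46 in either G418 library. The RRTS that such a lack of reads still allows differs by transcript, with its CDS reads and counted length. Limits are given below for some of them.

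Ribosomes were present on stop-free 3′UTRs at a low level in untreated cells and at a higher one in G418-treated cells. Summed over the 294 transcripts and divided by the reads expected at CDS density, 3′UTR reads amounted to 1.48% and 1.28% of CDS density in the untreated libraries. In the G418 libraries they amounted to 12.9% and 11.9%. The mean rose from 1.38% ± 0.137 to 12.4% ± 0.681 (SD, n = 2), an 8.98-fold difference, with 8.72-fold between the A libraries and 9.29-fold between the B libraries. The groups did not overlap, but 2 libraries against 2 cannot give a p below 0.333 in an exact 2-sided permutation test, which is the p obtained. Transcripts with a 3′TC, counted up to the first one, had 1.95% ± 0.131 and 15.8% ± 0.508 (SD, n = 2). The stop-free value was thus 0.721 and 0.689 times theirs without and 0.798 and 0.773 times theirs with G418. It was lower in 4 of 4 libraries, for which an exact sign permutation gives p = 0.125, the smallest possible.

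This difference depends on the length by which reads are divided. When the counted length of stop-free transcripts alone was taken as 15 nt shorter, an alternative chosen after seeing the data, their aggregate was 15.1% in G418-treated and 1.70% in untreated cells. The ratio to transcripts with a 3′TC then moved to 0.961 and 0.868.

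Stop codon identity ordered the G418 values of stop-free transcripts as UAA, UAG and UGA from low to high. With G418, 162 transcripts ending in UGA had aggregates of 17.2% and 16.4%, 64 ending in UAG had 11.03% and 9.95%, and 68 ending in UAA had 8.64% and 7.52%. The 3 ranges did not overlap, but without GAPDH the UAA values were 10.3% and 9.01%, which overlap those of UAG with ACTB kept. Without ACTB the UAG values were 13.5% and 11.9%, and without PFN1 the UGA values were 17.6% and 16.6%. With these 3 genes each left out of its class, the ranges did not overlap. In untreated cells the same classes had means of 1.40% ± 0.0568, 1.40% ± 0.270 and 1.33% ± 0.253 (SD, n = 2), which differ by less than the spread between replicates. The G418 to untreated ratio was 12.04 for UGA, 7.49 for UAG and 6.08 for UAA. Among UGA contexts, UGAU was highest in G418-treated cells (16 transcripts, 26.8% ± 1.44), and UGAA was lowest (33 transcripts, 12.6% ± 0.734). BANF1 held 239 of 420 and 160 of 323 G418 reads of the UGAU class, so a large part of this value comes from 1 gene. Among transcripts with a 3′TC the order differed: UGAC was highest (35.5%), UGAU had 27.3% and UGAG was lowest (17.7%).

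**Figure D1:**
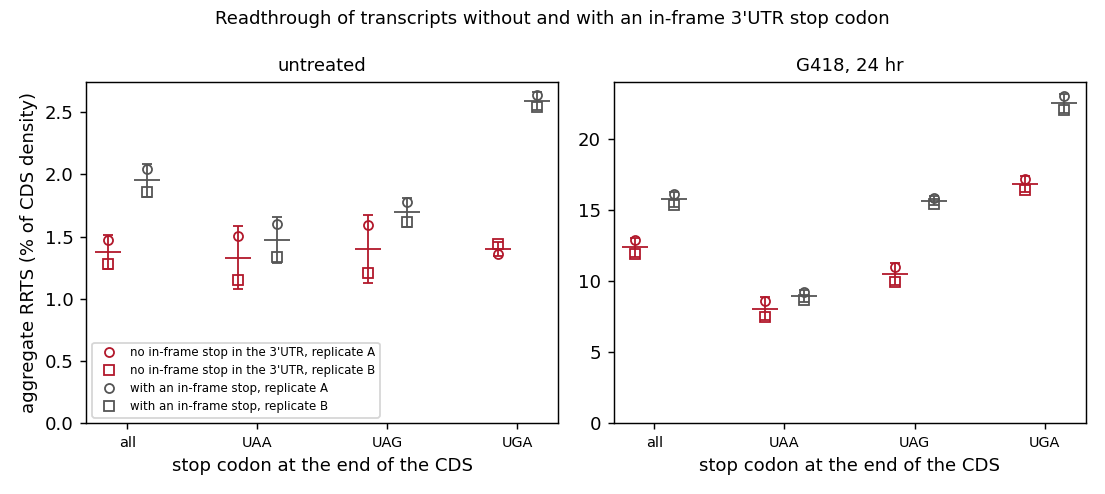
Aggregate RRTS (% of CDS density) of transcripts without an in-frame 3′TC (red) and with one (gray), for all transcripts and by stop codon, in untreated cells (left) and G418-treated cells (right), with different vertical scales. Circles and squares are replicates A and B, bars are the mean and SD (n = 2). In G418-treated cells the red points rise from UAA (8.64% and 7.52%) to UGA (17.2% and 16.4%), and the gray points lie above them in each class.

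For UGA, stop-free transcripts had 0.748 and 0.746 times the aggregate of transcripts with a 3′TC with G418 and 0.514 and 0.566 times without. Within UGAC the values were 1.49% ± 0.0565 against 5.99% ± 0.200 in untreated cells and 17.0% ± 0.463 against 35.5% ± 1.05 in G418-treated cells (SD, n = 2, 46 and 618 transcripts). PFN1 alone made up 45.8% of the expected reads of the stop-free UGAC class, and without it the class had 2.24% in untreated and 18.1% in G418-treated cells. For UAA the order of the 2 kinds of transcript rested on 1 gene. GAPDH, the glycolytic enzyme, held 22.6% of the expected reads of stop-free UAA transcripts, and its RRTS was 0.056% and 0.13% without and 1.93% and 1.82% with G418. With GAPDH the stop-free UAA aggregate was 0.931 and 0.867 times that of transcripts with a 3′TC in the G418 libraries, and without it 1.12 and 1.04 times. For UAG, leaving out ACTB (37.7% of expected reads) moved the ratio from 0.694 and 0.645 to 0.852 and 0.773. These 3 genes were named here after their values were seen.

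Base composition moved with the comparison. Where the first 60 nt of the 3′UTR had under 45% GC, 68 stop-free transcripts had 8.84% ± 0.474 of CDS density in G418-treated cells and 2098 transcripts with a 3′TC had 19.02% ± 1.11 (SD, n = 2). At 45% to under 55% GC the values were 17.4% ± 2.26 and 17.7% ± 0.593, at 55% to under 65% they were 12.9% ± 0.349 and 15.8% ± 0.139, and above that 13.1% ± 0.467 and 15.99% ± 0.413. The part of GC content in the difference between the 2 kinds of transcript was not tested.

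In G418-treated cells the density of ribosomes on stop-free 3′UTRs lay between 9.58% and 13.3% of CDS density at each 3′UTR length, whereas that of transcripts with a 3′TC was lowest where the 3′UTR was longest. Over the whole 3′UTR after its first 6 nt, stop-free 3′UTRs had 12.5% ± 1.61 of CDS density at an annotated length under 50 nt, 13.3% ± 0.759 at 50 to under 100 nt, 12.3% ± 0.720 at 100 to under 200 nt, 9.58% ± 0.364 at 200 to under 300 nt and 10.6% ± 0.542 at 300 nt or more (SD, n = 2). The corresponding values of transcripts with a 3′TC were 10.8%, 9.73%, 9.48%, 7.48% and 1.48%. The ratio of the 2 kinds was above 1 in both G418 libraries in each of the 5 length classes. It ran from 1.09 in replicate B under 50 nt to 7.56 in replicate B at 300 nt or more. For transcripts with a 3′TC the whole 3′UTR includes the part after the first one. These ratios therefore do not compare readthrough of the NTC alone. In untreated cells the mean ratio lay between 0.708 and 1.06 in the 4 classes under 300 nt and was 3.58 above. Only 25 stop-free transcripts were in the longest class, beside 5092 others whose 3′UTRs are mostly far longer. Single genes weigh on the 2 longest classes of stop-free transcripts. In the counted window, PFN1 held 508 and ACTB 307 of 1203 reads at 200 to under 300 nt in G418 replicate A. In G418 replicate B they held 403 and 252 of 955. At 300 nt or more APRT held 191 of 382 and 170 of 353 G418 reads. No trend with length is drawn from these classes.

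**Figure D2:**
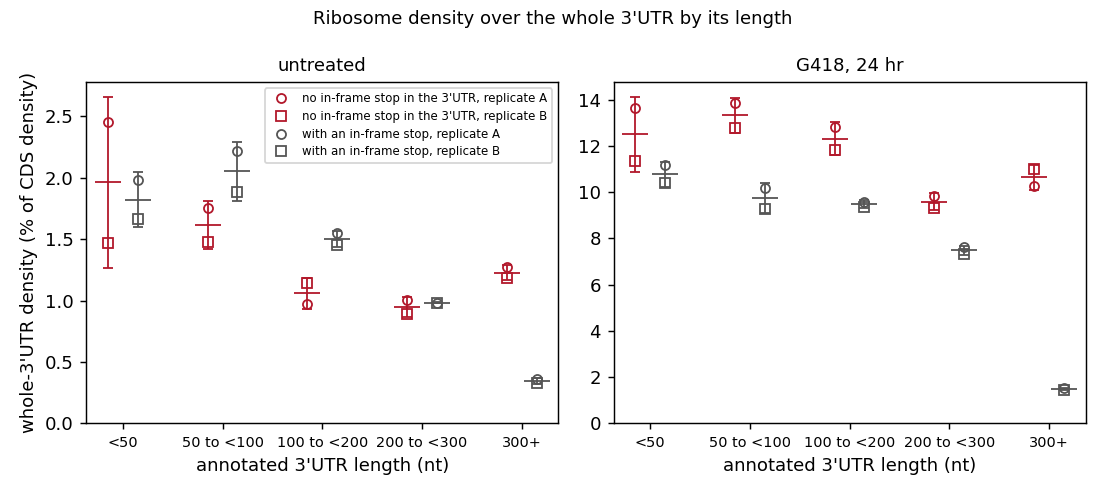
RPF density over the whole 3′UTR (% of CDS density) by annotated 3′UTR length (nt), for transcripts without an in-frame 3′TC (red) and with one (gray), in untreated cells (left) and G418-treated cells (right), with different vertical scales. Circles and squares are replicates A and B, bars are the mean and SD (n = 2). At 300 nt or more in G418-treated cells the red points remain at 10.3% and 11.02% while the gray points are at 1.51% and 1.46%. APRT holds a large part of the reads of that red class. The gray values include the part of the 3′UTR after the first 3′TC.

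Within the counted window the aggregate RRTS of stop-free transcripts in G418-treated cells was 15.1% ± 1.47 under 50 nt (106 transcripts), 13.7% ± 0.705 from 50 nt (83), 12.5% ± 0.980 from 100 nt (60), 9.73% ± 0.266 from 200 nt (21) and 10.8% ± 0.402 from 300 nt (24). In untreated cells it was 2.19% ± 0.599, 1.56% ± 0.0107, 0.954% ± 0.0466, 0.980% ± 0.0817 and 1.23% ± 0.0192 (SD, n = 2). The shortest class was the highest in both conditions, as it was for transcripts with a 3′TC (22.7% with G418, 3.45% untreated). Within this window stop-free transcripts were below those with a 3′TC in each class under 300 nt. The mean ratios there were 0.650 to 0.789 with G418 and 0.570 to 0.637 untreated. At 300 nt or more the ratio was 2.30 in both conditions. Grouped by CDS reads over the 4 libraries, the G418 aggregate was 13.6% ± 2.64 under 500 reads (52 transcripts), 15.2% ± 0.317 from 500 (136), 13.5% ± 0.740 from 2000 (76) and 11.2% ± 0.814 from 8000 reads (30). Transcripts with a 3′TC fell from 23.4% in the first of these classes to 10.6% in the last, and only in the last class did the G418 ranges of the 2 kinds of transcript overlap.

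Stop-free transcripts whose isoforms all lack a 3′TC and those with an isoform that has one had RRTS values of 12.02% ± 0.658 (174 transcripts) and 13.5% ± 0.733 (113) in G418-treated cells and of 1.17% ± 0.130 and 1.89% ± 0.155 in untreated cells (SD, n = 2). The ranges of the 2 classes did not overlap in either condition. With G418 the aggregates were 9.71% against 25.2% from 100 to under 200 nt (40 and 19 transcripts). From 200 to under 300 nt they were 11.5% against 7.47% (13 and 8 transcripts). Single genes weigh on both: BANF1 held 239 of 401 and 160 of 289 G418 reads of the 19 transcripts. ACTB, with an RRTS of 6.64% and 6.44%, held 307 of 406 and 252 of 331 reads of the 8 transcripts. The lower value of these 8 thus rests mostly on 1 gene, and no order by length is drawn from it. A larger ratio between the classes was found in the 6 further positions that are left out of the counted window. There the 174 transcripts had 9 and 11 reads in the G418 libraries, or 0.442% and 0.636% of CDS density. The 113 transcripts had 100 and 80 reads, or 9.01% and 8.52%. In the untreated libraries the densities were 0.271% and 0.205% for the former and 1.17% and 0.801% for the latter. The sources used here do not say at which end of the 3′UTR these positions lie.

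**Figure D3:**
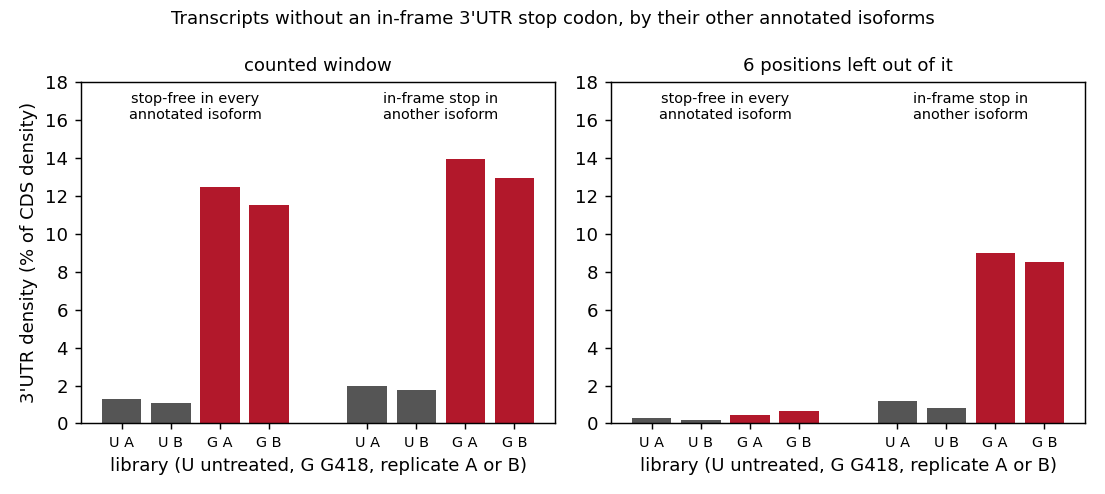
RPF density (% of CDS density) of transcripts without an in-frame 3′TC in the counted 3′UTR window (left) and in the 6 positions left out of it (right), for the 174 transcripts whose annotated isoforms all lack a 3′TC and the 113 with an isoform that has one. Each bar is 1 library (gray untreated, red G418). In the left-out positions the red bars stand at 0.442% and 0.636% in the first class and at 9.01% and 8.52% in the second.

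The 10 transcripts with the most 3′UTR reads had higher RRTS values in both G418 libraries than in both untreated libraries, and the untreated levels spanned a wide range. PFN1 held 19, 7, 508 and 403 counted 3′UTR reads over a 3′UTR of 248 nt. Its RRTS was 0.599% and 0.549% in untreated and 15.6% and 15.6% in G418-treated cells, so replicates lay close together. The fitted log2 fold change was 4.73 (standard error 0.19, edgeR, adjusted p = 5.1e-125). APRT, whose 3′UTR of 359 nt is the longest of the 10, had an RRTS of 1.09% and 0.697% in untreated and 13.5% and 13.3% in G418-treated cells. ACTB had 79, 28, 307 and 252 reads and an RRTS of 1.44%, 1.12%, 6.64% and 6.44%. Its rise of 2.30 on the log2 scale (standard error 0.16, edgeR, adjusted p = 5.7e-47) was lower than the median of 3.36 over the stop-free transcripts tested.

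Of these 10, BANF1 and the histone H4 gene HIST1H4J had the highest G418 levels after NACA. For BANF1 the RRTS was 1.48% and 2.25% in untreated and 40.5% and 33.2% with G418. It rose by 4.38 on the log2 scale (standard error 0.25, adjusted p = 2.3e-65, edgeR). HIST1H4J, with 5 and 2 untreated reads on a 3′UTR of 44 nt, went from 0.942% and 0.882% to 40.5% and 27.9%. NACA already stood at 17.7% and 11.9% in untreated cells and had 42.3% and 39.1% in G418-treated cells. Its rise of 1.34 on the log2 scale (standard error 0.22, edgeR, adjusted p = 3.4e-09) was the smallest of the 10. The counted window of NACA is 22 nt, and 5 of its 13 other isoforms with this stop codon have an in-frame 3′TC. RPL5 had 2.72% and 3.83% in untreated and 22.6% and 17.0% in G418-treated cells. Reads of ACTB, GAPDH, NACA and the histone genes can also map to related genes or pseudogenes, and the study kept 1 alignment of each such read, so the split among copies is uncertain.

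**Figure D4:**
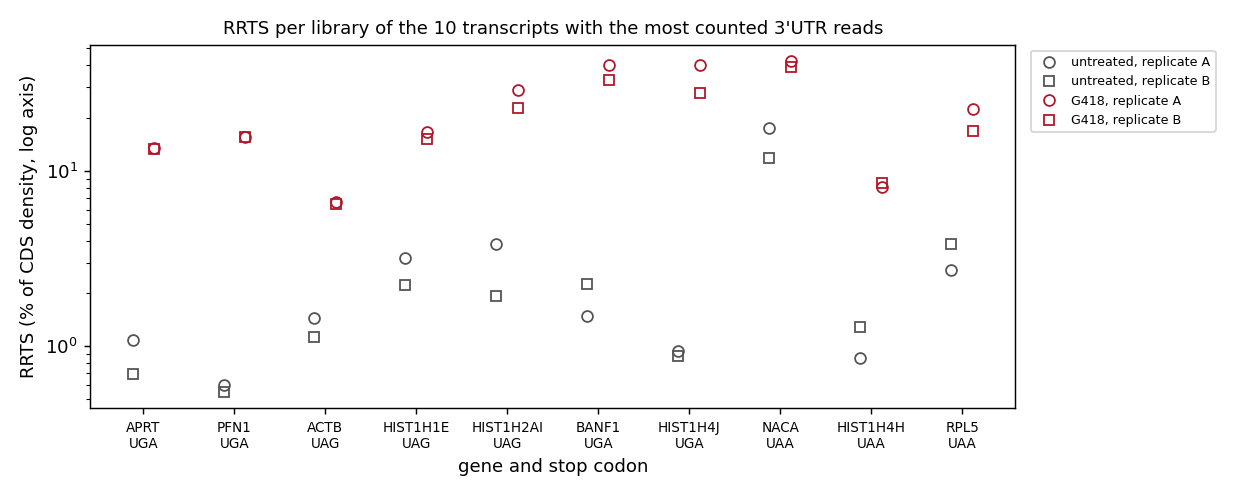
RRTS (% of CDS density, log axis) in each library for the 10 transcripts without an in-frame 3′TC that have the most counted 3′UTR reads, with the stop codon under each gene. Gray is untreated, red is G418, circles and squares are replicates A and B. Both red points lie above both gray points for each gene, and NACA has the highest gray points (17.7% and 11.9%).

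Across single transcripts, RRTS was tested with edgeR on 3′UTR reads with CDS reads as offset, for transcripts with at least 10 counted 3′UTR reads over the 4 libraries. This was possible for 140 of the 446 stop-free transcripts, and the other 306 were not tested. Of the 140, 126 had a higher RRTS with G418 at an adjusted p of 0.05, where the background over all 2827 transcripts tested was 82.6%. None had a lower RRTS in edgeR, where the background was 0.0707%, none was lower at an unadjusted p under 0.05, and DESeq2 called 85 higher and 0 lower. Since most reads come from the G418 libraries, a transcript often passed the minimum only because it was high there, so these counts describe the tested transcripts alone. The fitted log2 fold changes ranged from -0.42 (CYBC1, adjusted p = 0.69) to 8.68 (AURKB, without an untreated read, so that the fitted value is no bound), with a median of 3.36 beside 3.18 over all transcripts tested. For 27 of the 140 no read was found in either untreated library. Setting these to the fold change against 3 reads over the untreated group gave a median of 2.73. Without any minimum of 3′UTR reads, 198 of the 294 transcripts had both G418 values above both untreated values (67.3%, against 65.3% of all 6509 transcripts), and 0 had both below (against 0.476%). Neither share sets stop-free transcripts apart from the rest.

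Among the 3 largest fitted rises, no untreated read was found, so each is given as a bound against 3 reads over the untreated libraries. AURKB, the mitotic kinase of the chromosomal passenger complex, had 0, 0, 60 and 47 reads on 125 counted nt, or 37.3% and 37.4% of CDS density in the G418 libraries, at least 32.4-fold higher. PRDX5, a peroxiredoxin, had 0, 0, 40 and 36 reads, at least 17.4-fold higher. EDF1, a factor recruited to collided ribosomes, had 0, 0, 25 and 16 reads, at least 9.17-fold higher, although its G418 RRTS was only 6.70% and 5.72%. The 3 genes thus differ in their G418 level while none shows a read in untreated cells.

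The 5 longest stop-free 3′UTRs were taken among the transcripts tested. Each of these has at least 10 counted 3′UTR reads by rule, so that they bore reads is no result. GRINA, MLST8, PYM1 and MAPK12 reached this minimum only with their G418 reads. Long 3′UTRs with fewer reads are not described. GRINA, a membrane protein gene with a counted window of 562 nt, had 3, 2, 31 and 29 reads and an RRTS of 0.741%, 0.986%, 5.72% and 5.76%. MLST8, a subunit of the mTOR complexes, had 2, 0, 20 and 12 reads on 463 nt, and its pooled ratio was 9.39 (95% exact interval for counting error 2.40 to 80.9). PYM1, an exon junction complex factor, had 1, 0, 11 and 9 reads on 447 nt. MAPK12, a p38 kinase, had 0, 0, 3 and 14 reads on 488 nt, and its G418 replicates lay far apart, at 4.54% and 27.4%. VAC14, a scaffold of the PIKfyve complex, had 6, 5, 18 and 18 reads on 477 nt. It stood at 10.8% and 23.8% in untreated cells, and its log2 fold change of 1.19 had an adjusted p of 0.029 in edgeR, which was lost without G418 replicate A (0.069) or B (0.14), without untreated replicate A (0.50), with a replicate block (0.074) and with DESeq2 (0.24).

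The highest untreated RRTS values among transcripts with at least 10 untreated 3′UTR reads belonged to INAFM1, VAC14, KIF22, NACA and HSPBP1. INAFM1 had 7, 3, 12 and 7 reads on its 3′UTR and only 9, 7, 10 and 8 on its CDS, and its RRTS was 88.8%, 48.9%, 137% and 99.9%. Both G418 values lay above both untreated values, but the pooled ratio of 1.69 had a 95% exact interval for counting error of 0.747 to 4.07, and the transcript was not tested. KIF22, a mitotic kinesin, had 21.6% and 4.61% in untreated and 95.6% and 43.8% in G418-treated cells. HSPBP1, a nucleotide exchange factor of HSP70, had 10.7% and 14.002% in untreated and 23.2% and 40.8% in G418-treated cells. The log2 fold changes of KIF22 (2.12, adjusted p = 1.5e-05) and HSPBP1 (1.38, adjusted p = 0.0086, both edgeR) were below the median of the tested transcripts. The call of KIF22 was lost without G418 replicate A (adjusted p = 0.060), and that of HSPBP1 without G418 replicate B (0.19), without untreated replicate A (0.097) and with DESeq2 (0.13).

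Among 66 cytosolic ribosomal protein transcripts listed, 14 were stop-free (21.2%), as were 7 of 26 replication-dependent histone transcripts (26.9%), while 4.81% of all transcripts were. Histone mRNAs of this class end in a stem-loop in place of a poly(A) tail and have short 3′UTRs. The 13 ribosomal protein transcripts with enough reads had an aggregate RRTS of 1.65% ± 0.153 in untreated and 11.2% ± 1.19 in G418-treated cells (SD, n = 2), beside 1.07% and 5.42% for 52 ribosomal protein transcripts with a 3′TC. Of the stop-free ones 12 were tested and 12 had a higher RRTS with G418 (against the background of 82.6%), among them RPL13 (0.297% and 0.573% in untreated, 9.02% and 6.34% in G418-treated cells). The 7 stop-free histone transcripts had 2.00% ± 0.522 and 15.7% ± 1.81, beside 0.505% and 4.99% for 17 histone transcripts with a 3′TC, and 6 of 6 tested were higher in G418-treated cells (against 82.6%). The tested transcripts of these families met the minimum of 3′UTR reads mostly through the G418 libraries, and the counts are not read as a result about either family. HIST1H1E, a linker histone gene, had 3.17% and 2.23% in untreated and 16.6% and 15.2% in G418-treated cells. HIST1H4H had 0.855% and 1.29% in untreated and 8.08% and 8.53% in G418-treated cells.

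The 2 stop-free transcripts listed as variant or H1 histones and some mitochondrial genes gave little or no 3′UTR signal. The 8 of that histone list with a 3′TC had 10.1% in G418-treated cells. H3F3A, encoding histone H3.3, had 3, 1, 6 and 1 reads on a counted window of only 32 nt. Its RRTS difference did not pass the test (log2 fold change 0.53, adjusted p = 0.60, edgeR). H2BFS had none in any library on 17 counted nt. At its CDS reads this allows an RRTS of up to 0.994% in untreated and 1.07% in G418-treated cells. Per the study, histone reads cannot be uniquely aligned, so the CDS reads of H2BFS and this limit are uncertain. Its counted window is also shorter than a footprint of 28 to 35 nt. ATP5PF, a subunit of the ATP synthase stalk, had no read on 74 counted nt in any of the 4 libraries. This allows an RRTS of up to 0.724% in untreated and 0.444% in G418-treated cells. Such limits take all CDS reads as coming from the transcript counted, which was not tested. COX6B1, a subunit of cytochrome c oxidase, had 4, 1, 58 and 59 reads and an RRTS of 0.695%, 0.460%, 13.4% and 15.4%. Over the 6 stop-free respiratory chain and ATP synthase transcripts the aggregate was 0.995% ± 0.371 in untreated and 8.54% ± 0.660 in G418-treated cells (SD, n = 2), beside 13.6% in G418-treated cells for 62 with a 3′TC. Of the 5 stop-free mitochondrial ribosomal protein transcripts 3 were tested and 3 were higher in G418-treated cells (against 82.6%), with an aggregate of 18.2% ± 2.86 there. MRPL41 had 1.28% and 2.66% in untreated and 8.22% and 9.78% in G418-treated cells, and its call (adjusted p = 0.027, edgeR) was lost with DESeq2 (0.17), with a replicate block (0.10), without G418 replicate A (0.11) or B (0.19) and without untreated replicate A (0.21). MRPS22 had 2 reads, both in G418 replicate A.

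In the smaller families few transcripts were stop-free. POLR2I, an RNA polymerase subunit, had no untreated read and 23.8% and 17.9% with G418, at least 3.26-fold higher. PSMC3, an ATPase of the proteasome base, had 2.03% and 0% in untreated and 28.1% and 12.1% in G418-treated cells. Its relative PSMC5 had 3.42% and 4.58%, and 8.06% and 12.1%, which did not pass the test (adjusted p = 0.18, edgeR). The amino acid transporter chain SLC3A2 had 5.17% and 9.72% in untreated and 25.4% and 29.6% in G418-treated cells, while SLC19A1, a folate carrier, had no 3′UTR read. TMEM9 had 1.49% and 6.38% in untreated and 31.6% and 39.1% in G418-treated cells, and TMEM160 had no untreated read and 22.1% and 15.1% in the G418 libraries. The 4 stop-free aminoacyl-tRNA synthetase transcripts had 4.86% ± 3.33 in G418-treated cells, beside 22.7% for 29 with a 3′TC, and RARS had 1.45% and 2.67%, and 4.88% and 1.93%, a difference within the spread between replicates (adjusted p = 0.26, edgeR). VARS held 1 read in untreated replicate B and 5 in G418 replicate A. The 3 stop-free zinc finger transcripts with enough reads had no 3′UTR read, and at the untreated CDS depth of ZNF618 and ZNF408 even 3 reads would exceed CDS density. No Sm or LSm gene (21 in the tables), release or recycling factor (6) or cytosolic poly(A)-binding protein (2) was stop-free.

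Factors that act on ribosomes at mRNA ends were examined in the CDS counts. PELO and NEMF, named above, were not among the genes tested. Of 21 ribosome rescue and nonstop decay genes 0 had higher and 2 had lower CDS counts in G418-treated cells (against backgrounds of 5.31% and 3.21%), namely GTPBP1 (log2 fold change -0.39, adjusted p = 0.019) and the SKI complex subunit WDR61 (-0.35, adjusted p = 0.014, both edgeR). Among 13 ribosome quality control genes GCN1, a sensor of collided ribosomes, was lower (-0.35, adjusted p = 0.0098). Among 6 termination and recycling genes DENR was higher (0.45, adjusted p = 0.0071, both edgeR). Each of these 4 calls was lost without G418 replicate A and without G418 replicate B, with adjusted p from 0.26 to 0.61 in edgeR. The median log2 fold changes of the 3 lists were -0.09, -0.15 and 0.14, beside 0.00 over all transcripts tested. EXOSC7, an exosome subunit, is the rescue gene that is itself stop-free. Its RRTS was 6.79% and 11.3% in untreated and 23.0% and 41.8% in G418-treated cells (log2 fold change 1.93, adjusted p = 0.0015, edgeR), and its CDS counts did not pass the test (-0.28, adjusted p = 0.13). The RRTS call was lost with DESeq2 (0.064), without G418 replicate B (0.070) and without untreated replicate A (0.089).

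CDS counts of stop-free transcripts changed little as a group. CDS counts are footprints, so more mRNA and more ribosomes per mRNA cannot be told apart, nor can fewer cells and less RNA per cell. Of 396 stop-free transcripts tested, 21 had higher CDS counts in G418-treated cells (5.30%, against a background of 5.31% of 8494 transcripts) and 33 had lower ones (8.33%, against a background of 3.21%). Their median log2 fold change was -0.02, beside 0.00 over all transcripts. The counts rest on single libraries: without G418 replicate A they were 2 and 2, without G418 replicate B 5 and 1, without untreated replicate A 23 and 75 and without untreated replicate B 57 and 59. DESeq2 called 6 and 13. Scaling by library totals, which moved the median of all transcripts up by 0.10, gave 40 higher and 10 lower.

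The largest rises that pointed the same way in both lettered pairs were in SAMD4B (log2 fold change 1.05, standard error 0.19, adjusted p = 0.00033), AC239811.1 (1.05, adjusted p = 0.037) and HES4, a transcriptional repressor of the Notch pathway (0.97, adjusted p = 0.00022, all edgeR). HES4 had a CDS density of 21.9 and 31.7 RPKM in untreated and 53.1 and 51.3 RPKM in G418-treated cells, and its 3′UTR had 0, 0, 16 and 8 reads. SAMD4B, an RNA-binding protein, had 8.18 and 7.62 RPKM in untreated and 18.9 and 15.6 RPKM in G418-treated cells, and no 3′UTR read. The largest falls were in RPL10L (-0.79, adjusted p = 0.0020), HIST1H2BE (-0.54, adjusted p = 0.00021) and CU639417.1 (-0.54, adjusted p = 0.00011). RPL10L is a near copy of RPL10, so its reads are uncertain, and its fall did not pass in DESeq2 or without either G418 library. The rise of AC239811.1 was lost without G418 replicate A (0.69, adjusted p = 0.69), without G418 replicate B (adjusted p = 0.066) and without untreated replicate A (adjusted p = 0.14), and that of SAMD4B without G418 replicate A (adjusted p = 0.057, all edgeR). HIST1H2BE lost its call without G418 replicate A (0.13) or B (0.097), and CU639417.1 without G418 replicate B (0.11).

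Histone genes were the family with most falls. Of 7 stop-free replication-dependent histone transcripts 4 had lower CDS counts and 0 higher (against backgrounds of 3.21% and 5.31%). Their median log2 fold change was -0.28, with single values from -0.54 to -0.10. DESeq2 called 3 lower, and HIST1H1E (adjusted p = 0.033 in edgeR) lost its call there (0.13). All 7 were below 0 with TMM, RLE and DESeq2 scaling, and 6 with library totals, where the median was -0.17 and 3 were lower. Of 14 ribosomal protein transcripts 3 were lower and 0 higher with TMM (against the same backgrounds). With library totals 3 were higher and 1 lower, so no direction is given for them. ACTB had a log2 fold change of -0.32 (adjusted p = 0.0063, edgeR), with 3069 and 3200 RPKM in untreated and 2757 and 2552 RPKM in G418-treated cells, and its adjusted p was 0.053 with library totals, 0.35 without G418 replicate A and 0.37 without G418 replicate B. GAPDH had -0.50 (adjusted p = 5.6e-05), with 2534 and 2495 RPKM in untreated and 1928 and 1822 RPKM in G418-treated cells. For PFN1 and APRT, whose RRTS rose, the CDS log2 fold changes were 0.02 and -0.04 and did not pass the test (adjusted p = 0.94 and 0.88, edgeR).

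**Figure D5:**
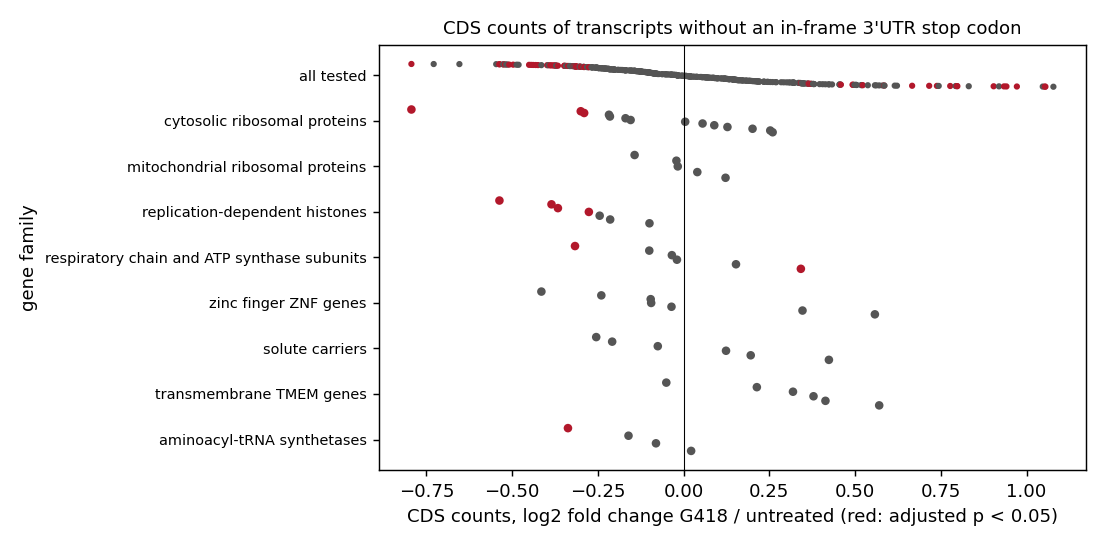
Log2 fold change of CDS counts (G418 against untreated, horizontal axis) for each tested transcript without an in-frame 3′TC, in all and by gene family (vertical axis, points spread by rank). Red points passed an adjusted p of 0.05 in edgeR. The histone points lie between -0.54 and -0.10, and the points of each other family drawn lie on both sides of 0.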

How the data were processed

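Ribosome profiling tables of 2 untreated and 2 G418 libraries were analysed. Per the labels and the study's methods, the authors collapsed reads by sequence and molecular identifier, removed noncoding RNA, aligned to hg38 with STAR guided by GENCODE release 30, allowed up to 200 positions while keeping 1 alignment, and assigned full-length RPFs (28 to 35 nt) to 1 transcript per gene. Base calling used CASAVA 1.8 per the submitters' processing notes. The deposited counts are unnormalized RPFs per region. The authors' RPM are RPFs scaled to mapped reads, the deposited RPKM are RPM per region length, and RRTS and 3′UTR occupancy are deposited as ratios. Densities of the 5′UTR, deposited too, count as a score here and were left aside.

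RPM values were whole multiples of the value of 1 read (100% within 0.001 read), and the recovered reads were used for RRTS. Aggregates divide summed 3′UTR reads by reads expected at CDS density. RRTS and CDS counts were tested with edgeR 4.0.16 (quasi-likelihood), with CDS reads as offset or TMM with its filter on low counts. Benjamini-Hochberg adjustment was over all transcripts tested. DESeq2 1.42.0 in R 4.3.3 was an alternative. Only the edgeR tests were also run on simulated data. Other alternatives were other minimums, lengths, scalings, a replicate block, an interaction model and leaving out libraries. Isoforms and the sequence shown come from GENCODE release 44 on hg38 through matched transcript IDs. Intervals and limits cover counting error only.

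Named are APRT, the 10 stop-free transcripts with the most 3′UTR reads, the 5 longest tested, the 5 with the highest untreated RRTS, the 3 largest rises and falls in RRTS and CDS counts past the threshold (no RRTS fell), 2 transcripts per family list, and rescue genes past the CDS threshold. The transcripts and lists were chosen with earlier results of these data known. Replicates are biological per the study's methods. Some stop codon sequences and 1 named transcript are not reported here.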

Additional observations from a re-analysis of the deposited data

Results flagged for a closer look

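The positions that the tables leave out of the counted window of stop-free transcripts are used in no RRTS value, yet they held a signal above that of untreated cells. Over the 294 transcripts the 6 further positions had 24 and 6 reads (untreated A, B) and 111 and 95 (G418 A, B). As a share of CDS density this was 0.683% and 0.395% in untreated and 3.44% and 3.46% in G418-treated cells, with means of 0.539% and 3.45%. The counted window stood at 12.4% in G418-treated cells. In G418-treated cells 100 and 80 of these reads lay on transcripts with another isoform that has a 3′TC, and 9 and 11 on transcripts whose isoforms all lack one. The cause was not tested.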

How the results depend on the processing

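The direction of the G418 effect was the same under each alternative, from 8.39 to 9.66-fold when 1 library was left out, 8.45-fold without PFN1 and 10.3-fold for transcripts whose isoforms all lack a 3′TC. Their untreated aggregate was 1.17%. Averaging RRTS over transcripts in place of summing reads gave 2.11% in untreated and 18.7% in G418-treated cells, and ratios to transcripts with a 3′TC of 0.397 and 0.648. A counted length 15 nt shorter for all transcripts gave 1.70% and 15.1% and ratios of 0.743 and 0.806, and for stop-free transcripts only (added after seeing the data) 1.70%, 15.1%, 0.868 and 0.961. The deposited counts over the whole 3′UTR gave 11.5% in G418-treated cells and turned the ratios to 3.36 and 6.51, since the 3′UTR of the other transcripts then includes the part after the first 3′TC. A minimum of 500 mRNA reads gave ratios of 0.773 and 0.829, isoforms that all lack a 3′TC 0.599 and 0.763, and no histone genes (added after seeing the data) 0.659 and 0.761.

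The higher RRTS calls numbered 85 to 123 when 1 library was left out, with 0 lower. CDS calls were less firm: with 1 library left out they ranged from 2 to 57 higher and from 1 to 75 lower, with DESeq2 they were 6 and 13, and with library totals 40 and 10. The replicate letters pair nothing by the labels (correlation of deviations of same-lettered CDS libraries 0.22 over 6509 transcripts), and a fit with the letter as a replicate block gave 112 higher RRTS calls and 28 higher and 41 lower CDS calls. For named transcripts, 28 of 298 RRTS values and 60 of 499 CDS values lost the call under an alternative, 29 CDS values gained one, and none past the threshold changed sign.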
